A study of Mus musculus with 12 samples.

Results

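The lumbar spinal cord is the part of the cord that serves the hind limbs, and its RNA was sequenced in 4 normal (WT) mice at 30 days of age, with 1 mouse per library. These 4 libraries, numbered 44, 45, 46 and 47, are those labelled WT and are 4 of the 12 libraries of the study. WT mice are labelled C57BL/6, untreated and without a transgene, while the study's methods speak of WT littermates of the mutant line, so that their strain is not settled by the sources. The other 8 libraries are from untreated MFN2 mice of the same age. These are MitoCharc1 animals of the transgenic line L51Ugfm on a mixed B6;D2 background, in which the rat Eno2 promoter drives human MFN2 with the R94Q change mainly in neurons. They are used here only as another set of libraries in which the spread of the same genes was measured. The sources used here do not give the sex of the mice. No genotypes are compared here, and the values are descriptions without a test.

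Total counts were 22842152, 22232157, 23564568 and 19453238 in libraries 44, 45, 46 and 47, and every list of 4 values below keeps this order. Levels are given as CPM, the counts of a gene relative to the scaled total of its library, which compare libraries, and as CPM per kilobase of exon (RPKM), which also compare genes. Errors are SDs over the 4 libraries (n = 4). A count of 0 allowed levels of up to 0.131, 0.141, 0.133 and 0.156 CPM, a limit that covers counting error only. Of 49548 counted genes, 32848 had a count in at least 1 WT library, and 15085 reached a mean of 1 CPM, of which 13491 code for proteins. A mean of 10 CPM was reached by 9654 genes, 100 CPM by 2045 and 1000 CPM by 70. The median level of the 15085 genes was 4.38 RPKM.

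In the cord a core of grey matter holds the neurons. Sensory input arrives in its dorsal horn, which relays pain, itch and touch, and motor neurons leave from its ventral horn, with glycine and GABA neurons restraining both. Around it lies white matter, long axons packed with neurofilaments and wrapped in myelin by oligodendrocytes. Astrocytes clear transmitter, microglia are the resident immune cells, and ciliated ependymal cells line the central canal.

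All 4 label genes were detected in every library. Mbp, a structural protein of myelin, stood at 8838, 12106, 9698 and 11541 CPM, and Nefh, the heavy neurofilament of large axons, at 1609.7, 2313, 2402 and 2673 CPM. Gfap, the intermediate filament of astrocytes, stood at 1545, 2755, 1922 and 2024 CPM, and Chat, which makes acetylcholine in motor neurons, at 16.4, 21.4, 21.3 and 35.2 CPM. Library 44 was the lowest of the 4 for each of these genes. Library 44 stood apart in other ways as well. It had the Y-linked transcripts Ddx3y, Uty and Kdm5d and no Xist count, while the other 3 had Xist and at most 1 count of these, and its log2 CPM deviated from the WT median by a median of 0.103 over the 15085 genes, against 0.0663, 0.0657 and 0.0809 in libraries 45, 46 and 47. It was at least 2 times above all other WT libraries for 128 genes and at least 2 times below them for 48, against 3 and 78 in library 45, 7 and 10 in library 46, and 40 and 34 in library 47. Counts below that change when library 44 is left out are therefore given both ways. Across genes, which are not independent replicates, log2 CPM correlated between pairs of WT libraries with r from 0.974 to 0.989.

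The most abundant feature of the normal cord was not a cord gene but Gm23935, a stretch of 57 bases annotated as a miRNA at chr16:11144125-11144181 on the plus strand (GRCm38). It took 84689, 100505, 103903 and 76832 CPM. With Gm24270, Gm24245 and Gm24187, other copies of the same stretch, it held 8.59%, 9.73%, 10.1% and 7.66% of all counts. The 4 sequences are shown because Gm23935, Gm24270 and Gm24245 are identical over their 57 bases. The letters of this stretch alone cannot tell these features apart, and the authors' counting could have split reads between them. A full-length read is longer than 57 bases and runs into flanking sequence, which was not compared, so whether whole reads can be told apart was not tested. Within its own 57 bases, Gm24187 differs from Gm23935 at a single base. They are given 5′ to 3′ from the GENCODE M21 transcripts, and the capital marks the base that differs from Gm23935, the substitution G11A counted from 1 at the 5′ end.
Gm23935, chr16:11144125-11144181, plus strand: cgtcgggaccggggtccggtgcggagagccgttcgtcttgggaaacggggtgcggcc
Gm24270, chr9:56223715-56223771, minus strand: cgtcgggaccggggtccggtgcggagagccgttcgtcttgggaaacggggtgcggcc
Gm24187, chr13:9834469-9834525, minus strand: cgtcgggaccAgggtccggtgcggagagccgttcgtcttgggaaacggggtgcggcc
Gm24245, chr4:139338304-139338360, plus strand: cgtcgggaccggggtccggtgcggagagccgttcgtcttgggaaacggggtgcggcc

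Gm26917 and Gm42418, neighbouring lincRNAs on chromosome 17, added 2.66%, 2.33%, 2.63% and 2.13%. RefSeq gives Gm42418 the synonym Rn18s-rs5, an 18S ribosomal RNA name. Genes of the mitochondrial chromosome numbered 0 in the files, but 10 nuclear features that share sequence with mitochondrial transcripts held 3.13%, 2.48%, 2.61% and 2.76% of the counts. Only a chosen set of features was compared with those transcripts, so this share is not a total. Of the 10, Gm10925, Gm28661, Gm28437, Gm28439 and Gm10222 shared all of their 31-base words with the 37 mitochondrial transcripts of the annotation. Gm29216 shared 97.2%, and these 6 lie on chromosome 1 between 24611535 and 24616197. Gm13340 shared 45.2%, Gm13339 28.3%, Gm4076 24.6% and Gm20594 10.02%. RNAs that carry no poly(A) tail, led by Rn7sk and the ribozyme Rpph1, held 0.475%, 0.326%, 0.5295% and 0.381%. The sources differ on how RNA was selected. The labels name an mRNA kit, the supplementary methods poly(A) mRNA sequencing with a stranded total RNA kit, and the paper's main text total RNA sequencing. The part of the selection in these values was not tested. Protein-coding genes held 83.5%, 83.7%, 82.8% and 85.03%, although this class includes Gm20594.

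The 10 most abundant genes took 16.6% ± 0.808 of the counts, the 100 most abundant 30.0% and the 1000 most abundant 56.5%. Among annotated protein-coding genes alone the 10 most abundant took 6.54%, and without the ribosomal-like, mitochondrial-like and tail-less features 6.57% (an alternative added once the values were known). Of the 20 genes with the highest CPM, those of known cord cells included Mbp of myelin, the nuclear RNA Malat1 and the microtubule proteins Map1b and Map1a. The same 20 held Sparcl1 and Slc1a2 of astrocytes, Nefm and Nefl of axons, Mobp of myelin, the fatty acid desaturase Scd2 and the cytoskeletal linker Dst. The last of the 20 stood at a mean of 2595 CPM and the next gene, Rn7sk, at 2547 CPM. Per kilobase the leading protein-coding genes other than Gm20594 included Sparcl1 with 1273 ± 81.9 RPKM, Mbp with 1245 ± 181 RPKM and Nefl with 988 ± 164 RPKM. These were followed by the chaperone Hsp90ab1, the lipid carrier Apoe, the oligodendrocyte tubulin Tubb4a, Nefm, the iron store Fth1 and the calcium sensor Calm2, from 598 to 733 RPKM on average. Further down the list stood Nefh, Scd2, Calm3, Aplp1, Actb, Rplp1, Gfap and the sodium pump subunit Atp1b1, down to 459.8 RPKM. Between neighbours in this order the SDs overlap, as for Sparcl1 and Mbp, so the order of close genes is not settled.

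A 2-fold range, meaning that the highest of the 4 WT libraries was at least 2 times the lowest after adding 0.1 CPM to each, was shown by 1175 of the 15085 genes, or 7.79%. This is the background for every list below, where only genes with a mean of at least 1 CPM are counted. Among the 11540 genes with a mean of at least 5 CPM the share was 2%, with 231 genes, so that a count of 0 in a short list of abundant genes is near the background and says nothing about its members. The filter also favours a wide range in genes that reach 1 CPM only through their highest library. There were 389 of these, and among the other 14696 genes 916, or 6.23%, had the range. The share over all genes above 1 CPM, 7.79% with the 4 libraries, was 3.79% without library 44, 6.36% without library 45, 6.36% without library 46 and 4.78% without library 47.

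Genes shared by most neurons had 0 of 15 members with a 2-fold range, against a background of 2% at such levels. Their summed level was 3128, 3906, 4060.3 and 4168 RPKM. Neurofilaments led it, with Nefl at 988 ± 164 RPKM, Nefm at 631 ± 122 RPKM and Nefh at 563 ± 113 RPKM. Stmn3, a microtubule regulator, stood at 394 ± 35.8 RPKM and Snap25, a protein of transmitter release, at 262 ± 21.7 RPKM. The 3 neurofilament genes were lowest in library 44 and highest in library 47, with Nefh ranging 1.66-fold. Map2, the dendritic microtubule protein, varied least of the list, at 1529, 1593, 1637 and 1605 CPM. Syt1, the calcium sensor of synaptic vesicles, ran the other way from the neurofilaments, at 181, 144, 149 and 111 CPM.

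Motor and cholinergic genes were highest in library 47 for 8 of 9 members. Their summed level was 91.2, 108, 108 and 164 RPKM, and 4 of 9 had a 2-fold range, or 3 of 9 without library 44. Chat was given above, and Slc5a7, the choline transporter that feeds it, stood at 57.6, 64.6, 63.8 and 129.5 CPM. Slc18a3, which loads acetylcholine into vesicles, stood at 31.4, 35.4, 39.1 and 62.9 CPM. Chodl, a marker of fast motor neurons, had the widest range of the list at 16.8, 23.1, 26.6 and 47.7 CPM. In each of these genes library 47 stood above the other 3, which lay closer together. Prph, a peripheral type of intermediate filament and the most abundant gene of the list, followed with 68.6, 86.6, 78.5 and 136 CPM. Isl1 and Mnx1, transcription factors of developing motor neurons, were low, at 1.39, 0.9396, 1.28 and 2.08 CPM and 2.66, 2.82, 2.43 and 3.96 CPM. Ache, which breaks acetylcholine down and is not restricted to these cells, stood at 105, 119, 127 and 114 CPM and was the member that was not highest in library 47.

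Dorsal horn genes moved the other way in library 47. Their summed level was 258, 245, 256 and 147 RPKM, with library 47 the lowest for 11 of 12 members, and 7 of 12 had a 2-fold range, or 5 of 12 without library 44. Sst, an inhibitory peptide made by dorsal horn excitatory neurons, stood at 73.6, 66.2, 66.2 and 29.9 CPM. Penk, the precursor of enkephalins, stood at 121, 124, 127 and 74.6 CPM, and Pdyn, that of dynorphins, at 9.97, 6.62, 7.29 and 2.91 CPM. Lmx1b, the transcription factor that marks the excitatory lineage, stood at 21.5, 15.4, 16.4 and 7.34 CPM. For Sst, Penk, Pdyn and Lmx1b alike, library 47 lay below the others. Among peptides of itch and pain, Grp stood at 3.09, 2.07, 2.92 and 0.989 CPM, Tac1, which gives substance P, at 16.1, 10.01, 10.7 and 7.18 CPM, and Tac2 at 5.36, 6.53, 8.04 and 3.07 CPM. Slc17a6, the glutamate transporter of most excitatory neurons in the cord, varied little, at 180.5, 182, 213 and 162 CPM, and so did Cck at 16.2, 16.8, 17.01 and 14.8 CPM. Tacr1, the receptor for substance P, was the member that was not lowest in library 47, at 13.2, 11.98, 13.4 and 13.4 CPM. In a bulk sample, fewer cells of a type and less RNA per cell cannot be told apart, and the part of where each cord was sampled in these values was not tested.

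Genes of inhibitory neurons were also lowest in library 47, for 5 of 6 members, with a summed level of 161, 140.4, 153 and 134 RPKM, and 0 of 6 had a 2-fold range. Library 44 was highest for 5 of 6. The median deviation from a gene's mean (log2 CPM) in library 47 was -0.29 here and -0.55 in the dorsal horn list. Slc6a5, the glycine transporter of glycinergic terminals, stood at 446, 383, 427 and 417 CPM, and Slc32a1, which loads both glycine and GABA into vesicles, at 149, 145, 155 and 132 CPM. Per kilobase these genes, at 58.1 ± 3.64 RPKM and 51.998 ± 3.56 RPKM, stood above the GABA-making enzymes Gad2 at 18.1 ± 4.46 RPKM and Gad1 at 14.5 ± 2.18 RPKM. Gad2 had the widest range of the list, 1.78-fold, at 142, 96.4, 108 and 79.7 CPM. The developmental factors Pax2 and Lhx1 remained detectable, at 21.4, 17.9, 18.3 and 15.1 CPM and 5.57, 4.89, 5.35 and 3.49 CPM.

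The Sst promoter is shown because Sst is the most abundant gene per kilobase of the dorsal horn list and was among the members with a 2-fold range. In the RefSeq promoter window of GRCm38, the cAMP response element TGACGTCA, searched on both strands, begins 48 bases before the annotated start of Sst, in capitals below. The 108 bases shown lie on the minus strand at chr16:23890845-23890952 and read 5′ to 3′ toward the gene.
Sst: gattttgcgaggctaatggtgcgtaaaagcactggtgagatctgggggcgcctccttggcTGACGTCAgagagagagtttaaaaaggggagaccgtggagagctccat

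The element was found in 588 of 32851 windows, each from 250 bases before to 50 bases after a gene's start, or 1.79%, and in 1 of the 12 windows matched to dorsal horn genes. The E-box CACGTG was found in 2 of 12 dorsal horn windows, of Cck and Tac1, in 2 of 8 windows of motor genes, of Ache and Chat, and in 7.15% of all windows. A match describes letters only and names no bound factor.

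**Figure D1:**
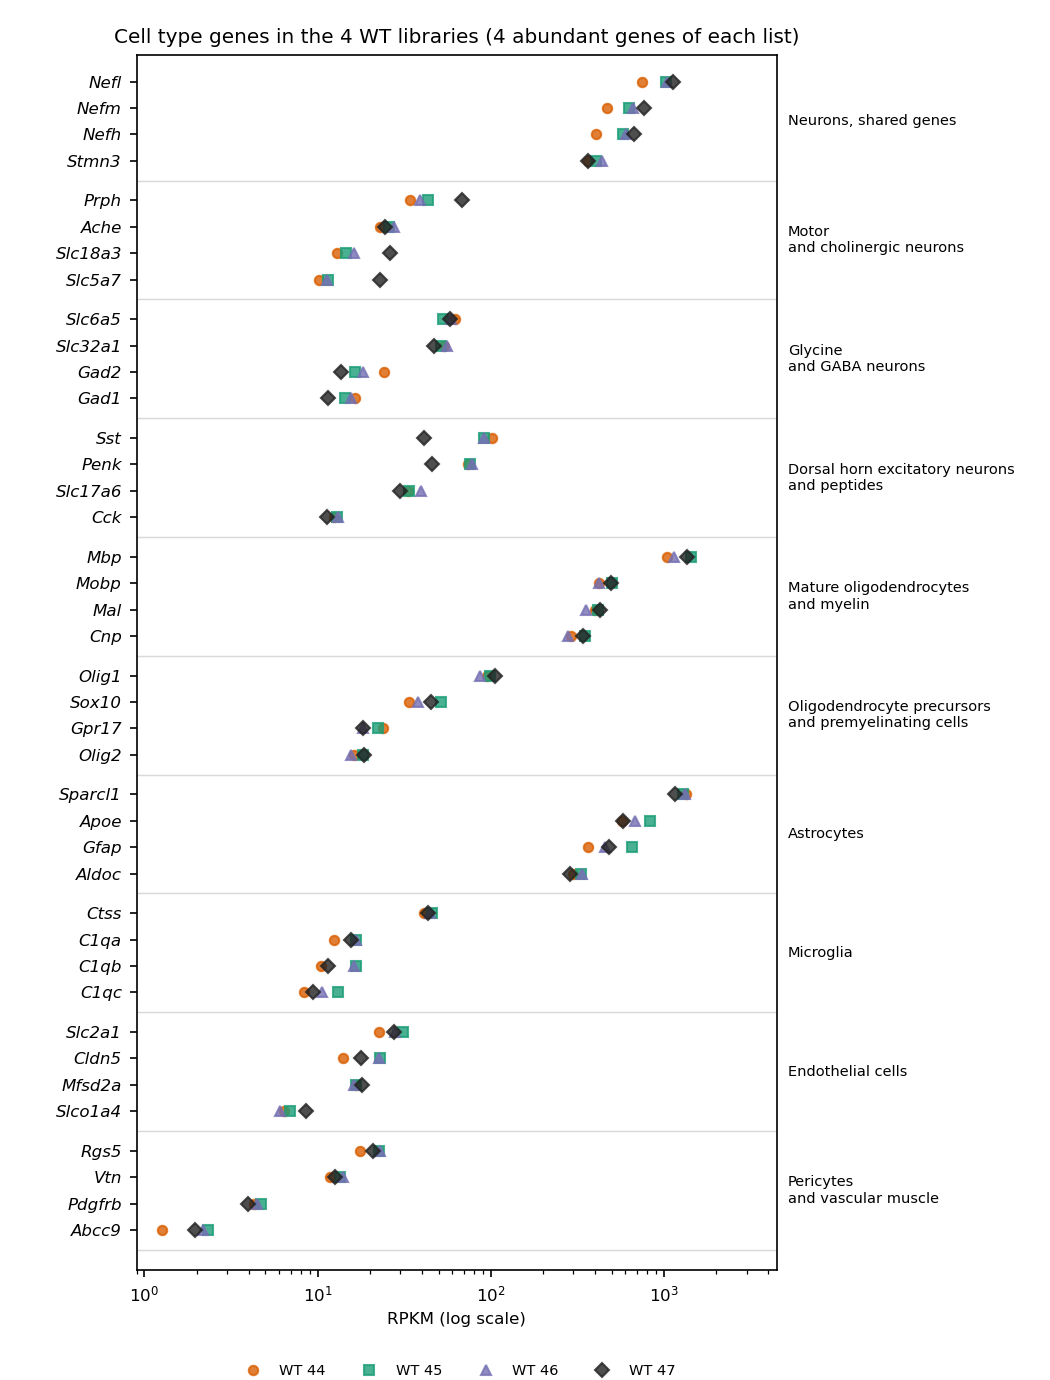
RPKM on a log scale of 4 abundant genes of each cell type list, with 1 point for each of the 4 WT libraries. Points of a gene lie close together for most myelin, astrocyte and neuron genes, while Sst and Penk of the dorsal horn have library 47 to the left of the others and the motor gene Slc5a7 has it to the right.

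Among the cell type lists, that of myelin had the largest summed level. The 15 genes of the list held 2.63%, 3.14%, 2.602% and 3.2999% of all counts and summed to 4779, 5885, 4899 and 6044 RPKM, and 0 of 15 had a 2-fold range. Mbp stood at 1044, 1429, 1145 and 1363 RPKM, with libraries 45 and 47 higher than 44 and 46. Mobp followed with 458 ± 42.9 RPKM, the raft protein Mal with 399.6 ± 33.01 RPKM, and Cnp, an enzyme of non-compact myelin, with 315 ± 35.9 RPKM. Cldn11, which forms the tight junctions between myelin layers, stood at 251 ± 22.5 RPKM and Mag, the adhesion protein of the innermost layer, at 181 ± 27.9 RPKM. The same split of the libraries was seen in the list as a whole. The largest range was that of Ermn, a cytoskeletal protein of late oligodendrocytes, at 289.7, 497, 382 and 485 CPM, and the lowest level that of Trf at 4.75 ± 0.782 RPKM.

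Precursor and premyelinating cells had 0 of 8 members with a 2-fold range and summed to 190.2, 219.5, 181 and 215 RPKM. Olig1 stood at 96.4 ± 8.08 RPKM and Sox10 at 42.1 ± 7.86 RPKM, transcription factors that mature oligodendrocytes also express. Markers of earlier stages were lower per kilobase, with Gpr17, a receptor of committed precursors, at 20.7 ± 2.86 RPKM, Enpp6 of newly formed oligodendrocytes at 14.4 ± 2.71 RPKM and the growth factor receptor Pdgfra at 5.71 ± 0.429 RPKM. Gpr17 was highest in library 44, at 124, 116, 95.2 and 95.04 CPM, where the mature genes were low. Of 14 genes of cholesterol synthesis, the pathway that supplies myelin lipid, 0 had a 2-fold range, and the entry enzyme Hmgcs1 stood at 801, 927, 755 and 918 CPM with the same pair of libraries high.

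Astrocyte genes summed to 3779, 4498, 4097 and 3870.4 RPKM, with 0 of 15 having a 2-fold range. Sparcl1, a secreted protein that promotes synapses, stood at 1273 ± 81.9 RPKM, Apoe at 667 ± 121 RPKM and Gfap at 489 ± 120.1 RPKM. Aldoc, a glycolytic enzyme, followed with 314 ± 24.7 RPKM, the glutamate transporter Slc1a2 with 260.1 ± 9.86 RPKM and Glul, which turns glutamate into glutamine, with 255 ± 29.9 RPKM. Slc1a2 was steady, at 3542, 3288, 3321 and 3511 CPM, whereas S100b and Gfap were lowest in library 44. S100b, a calcium-binding protein also made by oligodendrocytes, stood at 274, 488, 435 and 509.7 CPM. Slc1a3, the other glial glutamate transporter, was highest in library 44 instead, at 179, 115, 109 and 107 CPM, and so was the gap junction protein Gja1, at 538, 430.1, 427 and 389 CPM. The water channel Aqp4 stood at 161 ± 13.3 RPKM.

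Microglia contributed a small summed level of 129, 166, 157 and 152 RPKM, and 0 of 12 genes had a 2-fold range. The highest was the lysosomal protease Ctss at 43.7 ± 2.14 RPKM, and the complement genes followed lower, with C1qa at 15.4 ± 2.06 RPKM and C1qb at 13.8 ± 3.199 RPKM. Csf1r, the receptor on which microglia depend, stood at 47.03, 65.4, 55.9 and 57.98 CPM and P2ry12, a receptor of resting microglia, at 12.3, 15.8, 13.2 and 16.7 CPM. Library 44 was the lowest for 10 of the 12 and library 45 the highest for 9. Genes of border macrophages were low, with Mrc1 at 3.397, 1.64, 2.08 and 1.56 CPM and the other 3 genes below a mean of 1 CPM. Fcrls, named after its values were seen, is a microglial gene that was also lowest in library 44 but ranged 8.77-fold, at 1.05, 9.82, 9.24 and 9.94 CPM.

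Vascular genes were of the same order. Endothelial genes summed to 88.2, 111, 105 and 105 RPKM, led by the glucose transporter Slc2a1 with 27.2 ± 3.42 RPKM, the tight junction protein Cldn5 with 19.4 ± 4.33 RPKM and the lipid transporter Mfsd2a with 16.9 ± 0.838 RPKM. Flt1, a receptor for vascular growth factor, was the only 1 of 12 with a 2-fold range, at 68.2, 28.3, 26.2 and 54.5 CPM, whereas Kdr, the related receptor, stood at 28.1, 34.2, 27.05 and 31.9 CPM. Pericyte and vascular muscle genes summed to 39.1, 49.5, 50.4 and 46.1 RPKM, led by Rgs5 with 20.9 ± 2.49 RPKM and Vtn with 12.99 ± 0.978 RPKM. The contractile genes Acta2 and Myh11 were those of this list with a 2-fold range, 2 of 8, at 2.09, 3.34, 3.36 and 4.37 CPM and 7.32, 15.03, 13.4 and 11.3 CPM. Library 44 was lowest for both, and without it the count was 0 of 8.

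Ciliated cells varied more. Foxj1, the master factor of motile cilia, stood at 16.7, 24.6, 23.1 and 22.1 CPM, with library 44 lowest. The structural genes of cilia ran against it. Ccdc153 stood at 7.62, 2.58, 4.99 and 1.35 CPM, the radial spoke gene Rsph1 at 5.27, 3.101, 2.92 and 1.51 CPM and Hydin of the central pair at 16.2, 6.06, 8.13 and 4.22 CPM. Each was highest in library 44 and lowest in library 47. In all, 4 of 5 ependymal genes above 1 CPM had a 2-fold range, or 1 of 5 without library 44. A list of axonemal dyneins and other cilium genes, written after the values were seen, had 10 of 11 with a 2-fold range, or 4 without library 44, and summed to 14.3, 6.63, 8.14 and 4.94 RPKM.

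**Figure D2:**
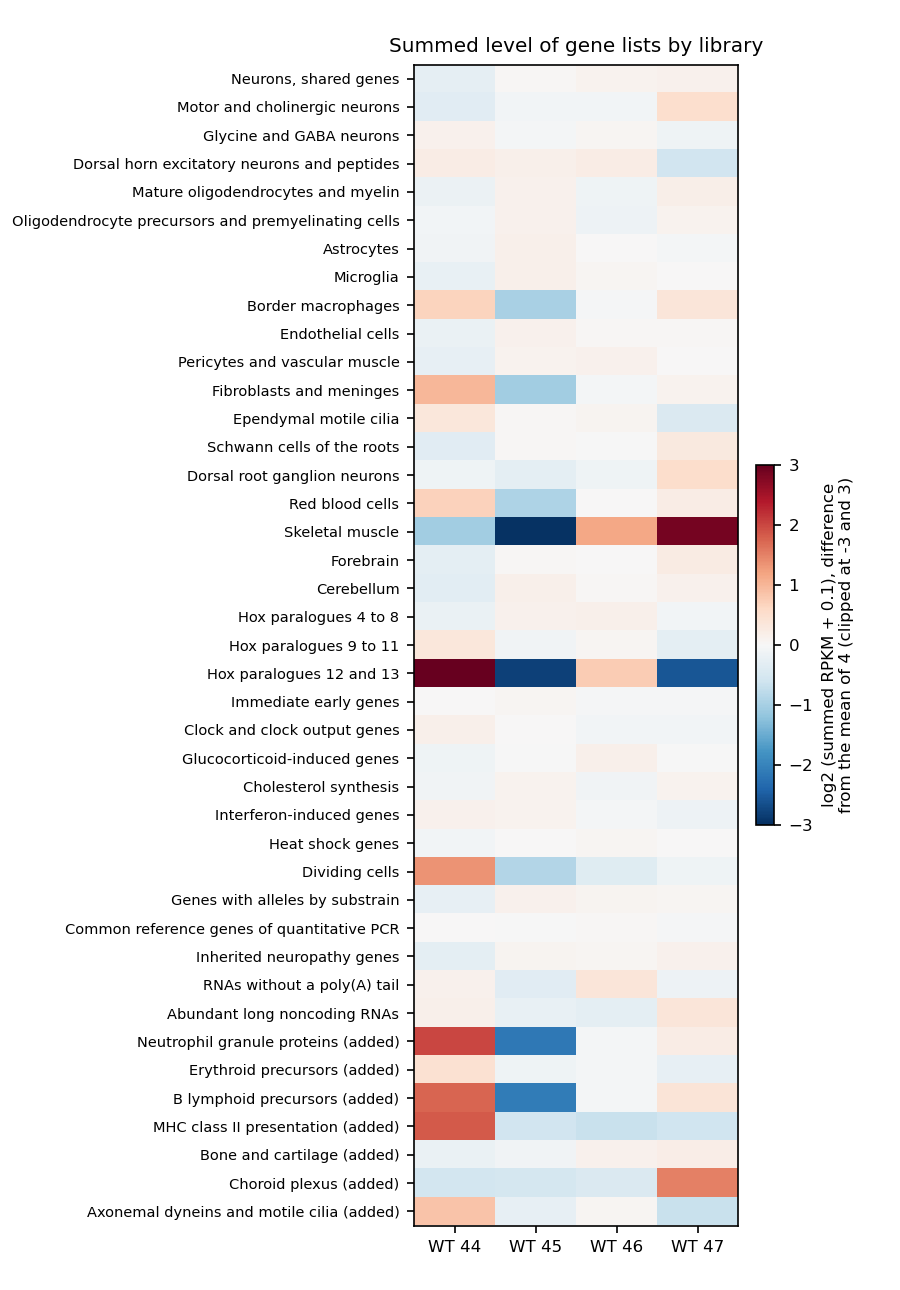
Summed RPKM of each gene list in each WT library, as the log2 difference from the mean of the 4 libraries, with red above and blue below that mean and the scale clipped at −3 and 3. Neuron, myelin, astrocyte and reference lists are pale in all 4 libraries, while skeletal muscle, Hox paralogues 12 and 13, dividing cells, and the added neutrophil, B lymphoid and MHC class II lists are strongly coloured.

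Cells of neighbouring tissues were looked for by their own markers. Of 8 Schwann cell genes, 3 reached a mean of 1 CPM and 2 were below 0.5 CPM in every library, among them Pmp2 with 0 counts. The list's sum of 26.2, 33.9, 32.8 and 40.4 RPKM came mostly from Pmp22 and Drp2, which other cells also express. Sensory ganglion genes other than Calca, a peptide that motor neurons make as well, were low, with the pain channel Scn10a at 0.131, 0.141, 0.177 and 0.104 CPM and P2rx3 at 0.827, 1.17, 1.24 and 1.72 CPM. Calca stood at 14.1, 11.6, 13.1 and 21.7 CPM, highest in library 47 like the motor genes. Forebrain genes summed to 4.66, 5.87, 5.75 and 6.84 RPKM and cerebellar genes to 0.784, 1.11, 1.03 and 1.09 RPKM. Within the forebrain list, Slc17a7, a glutamate transporter of cortical neurons and of some sensory afferents, stood at 0.0871, 10.01, 6.94 and 6.19 CPM. Its level in library 44 was under the limit that a count of 0 allows, although the dorsal horn list was not low there.

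Genes of inherited neuropathies summed to 1652, 2113, 2108 and 2214 RPKM, and library 44 was lowest for 17 of the 23 above 1 CPM. Mfn2, which fuses the outer membranes of mitochondria and is mutated in Charcot-Marie-Tooth disease type 2A, stood at 194, 221, 228 and 208 CPM, or 40.9 ± 2.91 RPKM. Its partner Mfn1 stood at 115, 117, 113 and 119.8 CPM, or 18.97 ± 0.496 RPKM. Per kilobase Mfn2 was the higher of this pair in all 4 libraries. A 2-fold range was shown by 0 of the 23, near the background of 2% for genes above 5 CPM. The axonal members were the most abundant, with Nefl followed by the kinesin Kif5a at 282 ± 35.9 RPKM, the dynein heavy chain Dync1h1 at 135 ± 10.7 RPKM and Kif1b at 126 ± 11.6 RPKM. The connexin Gjb1, expressed by oligodendrocytes and Schwann cells, stood at 42.5, 61.1, 59.2 and 66.3 CPM, and Ndrg1 at 180.2, 286, 248 and 287 CPM. Both were lowest in library 44.

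Of the common reference genes 0 of 15 had a 2-fold range, again near the background of 2%. Actb stood at 1386, 1440.4, 1347 and 1448 CPM, Sdha at 429.9, 459, 473 and 429.7 CPM and Gapdh at 515, 453, 561 and 426 CPM. The widest range was that of B2m, the light chain of MHC class I, at 74.3, 41.1, 41.1 and 39.2 CPM. Other lists hold genes that respond to handling, stress or the time of day. Of 12 immediate early genes, 0 of the 10 above 1 CPM had a 2-fold range, with Fos at 10.8, 9.35, 10.3 and 9.11 CPM and Arc at 31.3, 40.1, 37.3 and 39.5 CPM. Clock genes had 0 of 13, with Dbp, whose level swings over the day, at 36.4, 32.7, 26.5 and 26.6 CPM. Among glucocorticoid targets 1 of 10 had a 2-fold range, Sult1a1, while Fkbp5 stood at 17.2, 19.6, 18.4 and 19.9 CPM. Heat shock genes had 2 of 10, the inducible pair Hspa1a and Hspa1b, at 2.92, 6.01, 3.01 and 2.97 CPM and 8.23, 5.92, 3.09 and 4.32 CPM. These near-identical genes share reads and their split is uncertain. Interferon targets had 2 of 8, Irf7 and Rsad2, at 0.566, 1.503, 1.64 and 1.56 CPM and 4.49, 2.07, 2.61 and 3.12 CPM. The background of 7.79% covers genes of all levels above 1 CPM, and Irf7 and Rsad2 were below 5 CPM in every library. Among members with a mean of at least 5 CPM, 1 of 9 heat shock genes and 0 of 4 interferon targets had the range, against 2%. The counts of 2 are therefore not read as an excess, and without library 44 they were 0 of 10 and 0 of 8.

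Over the 15085 genes, the median SD of log2 CPM between the 4 mice was 0.137, the 90th percentile 0.399 and the median ratio of the highest to the lowest library 1.24. The common biological coefficient of variation, the spread between mice beyond counting error as estimated by edgeR, was 0.141. Without library 44 the median SD was 0.113 and the coefficient 0.0990. The coefficient was 0.117 in the 5 MFN2 libraries 72 to 76, and 0.354 in MFN2 libraries 41 to 43, of which library 43 stood apart. Counting error alone widens the range of genes near 1 CPM.

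The 5 steadiest of the 4100 genes above 50 CPM were Spire1, an actin nucleator, Gigyf2, a regulator of translation, the adhesion protein Nectin1, Maco1, and the ubiquitin ligase Rnf146. Gigyf2 stood at 108, 108, 107 and 108 CPM and Rnf146 at 54.7, 54.4, 54.1 and 54.1 CPM. Their SDs of log2 CPM were at most 0.0083, and that of the next gene, Ube4b, was 0.0084, so the edge of this group is not sharp. In the MFN2 libraries Rnf146 spanned 50.8 to 56.8 CPM and Nectin1 67.7 to 128 CPM.

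At the other end, the 25 genes above 5 CPM with the largest SD were highest in library 47 in 13 cases, in 44 in 9, in 45 in 3 and in 46 in 0. They were lowest in library 45 in 20 cases and in 44 in 5. The 20 include ties at 0 CPM, of Ddx3y and Uty in libraries 45, 46 and 47 and of Kdm5d in 45 and 46. All 25 genes were chosen for their spread, and their values are a description. The last of them, Slc4a1, had an SD of 1.78 (log2 CPM), and the next gene, Atp6v0c-ps2, 1.77.

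**Figure D3:**
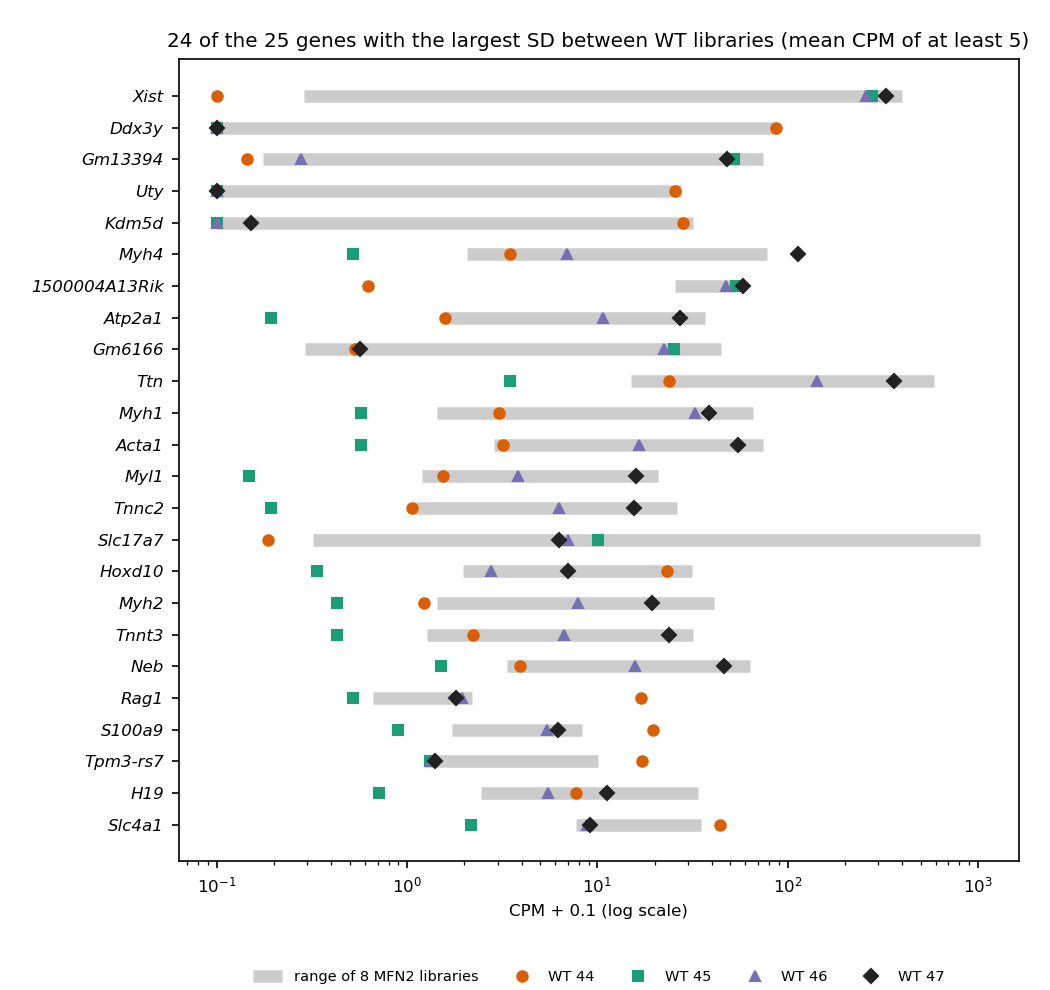
CPM plus 0.1 on a log scale of 24 of the 25 genes with the largest SD of log2 CPM between WT libraries among genes above 5 CPM, with 1 point per WT library and a grey bar for the range of the 8 MFN2 libraries. Muscle genes run from library 45 at the left to 47 at the right, marrow and Y-linked genes have library 44 at the right, and the grey bar spans most of the WT points of most genes.

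The widest gap was that of the sex chromosomes. Xist, the RNA that silences an X chromosome in females, stood at 0, 277, 257 and 329 CPM. The Y-linked genes Ddx3y, Uty and Kdm5d stood at 86.5, 0, 0 and 0 CPM, 25.4, 0, 0 and 0 CPM and 28.2, 0, 0 and 0.05205 CPM. Library 44 thus had the Y-linked genes and no Xist, and the other 3 had Xist and, apart from 1 count of Kdm5d in library 47, no counts of these Y-linked genes. Among the MFN2 libraries, 41 and 43 had Ddx3y at 89.2 and 66.3 CPM. With a single WT library of this kind, whatever distinguishes library 44 and the presence of Y-linked transcripts cannot be told apart.

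Skeletal muscle genes made the largest group, with 9 of 9 list genes having a 2-fold range both with and without library 44, 1 of which reached 1 CPM only through library 47. They summed to 6.83, 1.72, 31.5 and 103 RPKM. Ttn, the giant spring of the sarcomere and not of the list, stood at 23.7, 3.38, 143 and 361 CPM, Myh4, a fast myosin heavy chain, at 3.397, 0.423, 6.85 and 114 CPM and Acta1, muscle actin, at 3.09, 0.4698, 16.4 and 55.1 CPM. From high to low the libraries stood in the order 47, 46, 44 and 45 for each gene. Atp2a1, the calcium pump of fast fibres, and the myosins Myh1 and Myh2 stood at 1.48, 0.09396, 10.6 and 27.2 CPM, 2.96, 0.4698, 32.3 and 38.5 CPM and 1.13, 0.329, 7.82 and 19.4 CPM. Myl1, Tnnc2, Tnnt3 and Neb, also of the sarcomere, kept the same order and reached 15.8, 15.4, 23.7 and 46.2 CPM in library 47. H19, an imprinted RNA that muscle expresses, stood at 7.66, 0.611, 5.44 and 11.2 CPM and was also highest in library 47 and lowest in 45. In library 45 the 9 list genes were each below 1 CPM, whereas Ttn and Neb, outside the list, were above it. The muscle list summed to 123 RPKM in MFN2 library 73 and to a median of 11.3 RPKM over the 8 MFN2 libraries. How these transcripts came into the libraries was not tested.

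Marrow genes set library 44 apart. S100a9, a calcium-binding protein of neutrophils, stood at 19.5, 0.799, 5.35 and 6.14 CPM and Rag1, which recombines antigen receptor genes in lymphocyte precursors, at 16.9, 0.423, 1.86 and 1.72 CPM. Slc4a1, the anion exchanger of red cells, stood at 43.8, 2.07, 8.71 and 9.11 CPM. All 3 were highest in library 44 and lowest in library 45. The red blood cell list, led by Hbb-bs, summed to 259, 83.4, 160.4 and 185 RPKM, with 4 of 5 having a 2-fold range, or 3 without library 44. Its genes Hba-a1 and Hba-a2, and Hbb-bs and Hbb-bt, are near-identical pairs whose counts may be split. Lists written after these values were seen gave neutrophil granule genes 85.8, 4.79, 20.6 and 24.9 RPKM, with 9 of 9 having a 2-fold range, although 3 of them reached 1 CPM only through library 44, and B lymphoid precursors 7.05, 0.397, 1.94 and 2.66 RPKM. In the erythroid precursor list 8 of 9 had a 2-fold range, 5 of which reached 1 CPM only through library 44, the exception being Sptb, which neurons also express, at 507, 517, 491 and 420.4 CPM. The defining genes were low but present in the other libraries, for example Mpo of neutrophil precursors at 10.7, 0.517, 1.9003 and 2.24 CPM and Hemgn of erythroid precursors at 5.27, 0.188, 0.884 and 1.35 CPM.

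Dividing cell genes were highest in library 44 as well, with 6 of 6 having a 2-fold range, or 1 of 6 without library 44, and 2 of the 6 reached 1 CPM only through it. Mki67, a nuclear protein of cycling cells, stood at 78.6, 12.2, 21.4 and 25.6 CPM, and Top2a, which untangles DNA before mitosis, at 23.7, 5.17, 6.496 and 8.12 CPM. Library 44 was highest and library 45 lowest for both, and the list summed to 13.7, 2.85, 4.103 and 4.85 RPKM. Fibroblast and meningeal genes above 1 CPM were highest in library 44 for 6 of 7, with 5 of 7 having a 2-fold range, or 1 without library 44, and a sum of 70.2, 16.9, 33.3 and 37.9 RPKM. Col1a1, the main collagen of fibroblasts and bone, stood at 266, 38.8, 119 and 130.1 CPM, and Igf2, which the meninges make, at 34.8, 6.296, 9.32 and 10.7 CPM. Bgn, also of this list, did not follow them, at 12.6, 11.98, 9.68 and 12.9 CPM. Igfbp5, named after its values were seen, is a growth factor binding protein that was likewise highest in library 44, at 368, 58.9, 88.7 and 51.996 CPM. The added bone and cartilage list summed to 10.6, 11.3, 13.2 and 13.9 RPKM, and in it Ibsp stood at 1.61, 0.376, 0.928 and 1.04 CPM and Acan, which neurons also express, at 41.9, 52.2, 54.6 and 52.9 CPM. The parts of bone marrow, meninges or blood in these levels were not tested.

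Genes of antigen presentation were high in library 44 as well. Cd74, the chaperone of MHC class II, stood at 11.1, 0.752, 1.105 and 1.09 CPM and H2-Ab1, a class II chain, at 6.71, 0.799, 0.619 and 0.573 CPM. The class II list, added after the values were seen, summed to 13.1, 2.41, 2.26 and 2.34 RPKM, and to 12.2 RPKM in MFN2 library 41. Of its 4 genes above 1 CPM, 3 reached it only through library 44, so that their range follows from the filter. The other had no 2-fold range. B2m was given above, and the class I gene H2-Q6 stood at 3.14, 0.4698, 0.574 and 0.312 CPM. The reverse was seen for Glo1, an enzyme that detoxifies methylglyoxal, which lies on the same chromosome 17, at 68.4, 109, 109 and 112 CPM. Glo1 is copied in the genomes of some laboratory strains, and Nnt, another gene with a known strain allele, stood at 16.3, 13.7, 14.9 and 14.4 CPM. Together with Alad and Gpnmb, genes of this kind summed to 15.3, 19.97, 19.2 and 18.8 RPKM.

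Hox genes, which keep in the adult the address given along the body axis in the embryo, set library 44 apart at the tail end of their order. In each cluster the low-numbered paralogues are used from the hindbrain down and the high-numbered ones only toward the tail. Paralogues 1 to 7 summed to 205, 253, 263 and 216 CPM, and paralogues 8 and 9 to 264, 320.1, 318 and 271 CPM. Library 44 was the lowest in both sums, but not in every paralogue group within them. It was the highest for paralogues 3, at 23.9, 17.3, 18.1 and 15.4 CPM, and not the lowest for paralogues 1 and 2, and for paralogues 9, at 89.7, 114, 113 and 83.02 CPM, library 47 was lower. Paralogues 10, of the lumbar cord, summed to 68.4, 39.4, 52.3 and 39.8 CPM and paralogues 11 to 13, of the lower lumbar and sacral cord, to 61.7, 0.04698, 3.76 and 2.602 CPM. Here library 44 was the highest, and library 45 had 0 counts of every paralogue 11 and 12 gene. By list, a 2-fold range was shown by 3 of 14 genes of paralogues 4 to 8, or 0 of 14 without library 44, and by 4 of 10 of paralogues 9 to 11. The 3 genes of paralogues 11, and all 3 of paralogues 12 and 13 that passed, reached 1 CPM only through library 44, so that their range follows from the filter and supports nothing. Of the other 7 genes of paralogues 9 and 10, Hoxd10 alone had the range.

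Hoxd10, the only Hox gene among the 25 most variable, stood at 23.2, 0.235, 2.65 and 6.92 CPM. Hoxd11 stood at 14.8, 0, 0.619 and 0.989 CPM, Hoxc11 at 8.84, 0, 0.221 and 0.364 CPM and Hoxb13 at 9.84, 0.04698, 1.41 and 0 CPM. All were highest in library 44. Hotair, an RNA from the caudal end of the HoxC cluster, named after its values were seen, stood at 4.75, 0.04698, 0.0442 and 0.05205 CPM. Hoxa10 and Hoxc10 were expressed in all libraries, at 20.1, 24.2, 28.8 and 17.7 CPM and 25.1, 14.9, 20.9 and 15.1 CPM. Hoxc8, used in the lower cervical and thoracic cord, ran opposite, at 10.1, 47.3, 45.1 and 69.1 CPM. Its neighbours Hoxc6 and Hoxc9 also had library 44 lowest, at 8.45, 17.1, 16.5 and 17.2 CPM and 8.06, 15.2, 13.7 and 12.2 CPM. Hoxd8 and Hoxb9 did not separate the libraries in this way, at 41.02, 46.8, 42.999 and 44.2 CPM and 40.3, 41.3, 43.2 and 30.9 CPM. All 4 samples are labelled as the same tissue, and the levels of the segment taken were not given in the sources.

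**Figure D4:**
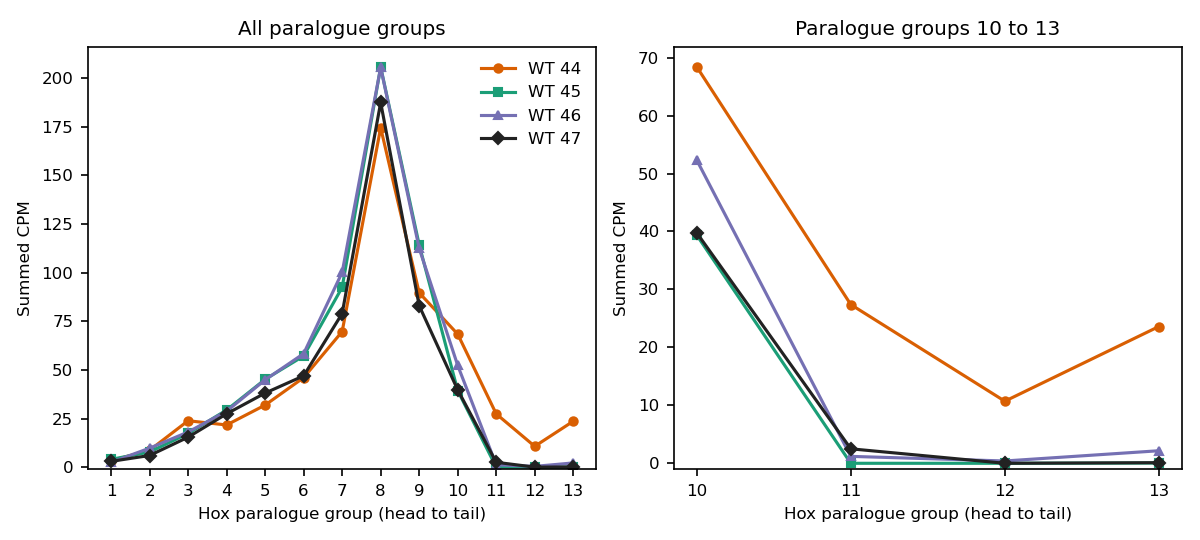
Summed CPM of the Hox genes of each paralogue group in the 4 WT libraries, for all groups at the left and enlarged for groups 10 to 13 at the right. The 4 lines run together with a peak at group 8, and from group 11 on the line of library 44 stays above the other 3, which lie near 0.

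Some genes were nearly on in some libraries and off in others. Gm13394, a processed pseudogene at chr2:28933610-28934609, stood at 0.0435, 52.5, 0.177 and 47.99 CPM, with libraries 45 and 47 on and 44 and 46 off. Gm6166, another processed pseudogene at chr9:57483963-57484371, stood at 0.435, 25.3, 22.4 and 0.468 CPM, with a different pair on. 1500004A13Rik, a noncoding transcript at chr3:88782943-88832547, stood at 0.523, 53.7, 47.6 and 57.98 CPM, and was nearly off in library 44 alone, where Fcrls of the same chromosome, at chr3:87250758-87263738, was also low. Tpm3-rs7, a tropomyosin copy on chromosome 14, stood at 17.03, 1.22, 1.24 and 1.301 CPM. Counts of such copies may be shared with their parent genes. Of the 100 most variable genes above 1 CPM, 16 were processed pseudogenes, 78 were protein coding and 4 were lincRNAs, classes that held 0.981%, 89.4% and 1.87% of the 15085 genes. Gm13394 ranged from 0.0761 to 73.8 CPM in MFN2 libraries, and Gm6166 from 0.1903 to 44.5 CPM, so both were off in some and on in others there too.

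The median SD of log2 CPM was 0.31 in the list of long noncoding RNAs and 0.66 in that of RNAs without a tail, against 0.137 for all genes. Malat1 stood at 9713, 7761, 7326 and 11728 CPM and Meg3, a maternally expressed RNA of neurons, at 1602, 900.5, 978 and 1205 CPM. Neat1, the scaffold of paraspeckles, was the member of its list of 7 with a 2-fold range, at 116, 148, 70.1 and 98.8 CPM. Among RNAs without a tail, 4 of 6 had a 2-fold range, 1 of which reached 1 CPM only through library 46. Rn7sk stood at 2939, 1817, 3190.1 and 2244 CPM, and Rmrp at 200.1, 78.6, 174 and 109.8 CPM. For Rn7sk, Rmrp and Rny3 library 45 was lowest, and Gm25911, a miRNA feature of 56 bases on chromosome 1 that was among the 20 highest per kilobase, reached 418 CPM in library 46 against 61.9 CPM in library 45.

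The genes that varied between normal mice were compared with the spread in the MFN2 libraries, which the choice had not used. Of the 100 genes with the largest SD in WT, 92 were among the 1508 genes with the largest SD over the 8 MFN2 libraries, a class that holds 10% of all genes. Of the 25 most variable above 5 CPM, 24 were in that class. The 100 genes had a median SD of log2 CPM of 1.31 in MFN2, against 0.230 for all genes. Over MFN2 libraries 72 to 76 alone, 86 of the 100 were in the class with the largest SD, set at 10% again, with a median SD of 0.898 against 0.125. With the 100 genes chosen without library 44 the number was 81. Over MFN2 libraries 41 to 43 it was 52. Genes of low level have larger SDs in any set of libraries through counting error, and among genes above 5 CPM the number was 74.

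Examples came from each group. Ttn ranged from 14.99 to 587 CPM in MFN2 libraries, Hoxd10 from 1.86 to 31.5 CPM and Tpm3-rs7 from 1.14 to 10.01 CPM. The WT range of Ttn and of Hoxd10 thus lay for the most part within a spread seen again among MFN2 mice. 1500004A13Rik did not show this, with 25.6 to 52.4 CPM in MFN2 and the off level of library 44 seen in none of the 8. Rag1 spanned 0.562 to 2.104 CPM, below its level in library 44. Slc17a7 reached 1029.5 CPM in MFN2 library 43, which also had 539 RPKM of the forebrain list and stood apart from all others.

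**Figure D5:**
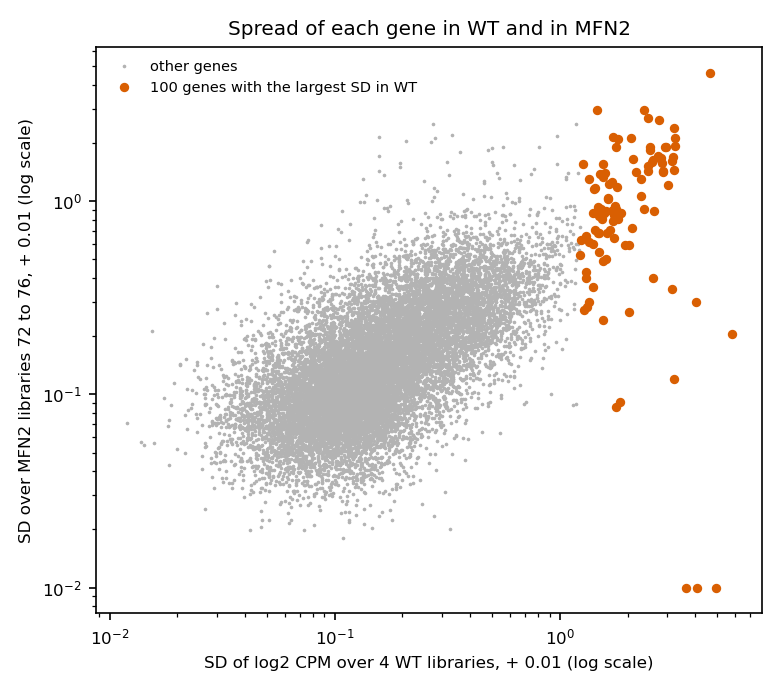
SD of log2 CPM over MFN2 libraries 72 to 76 against the SD over the 4 WT libraries, both plus 0.01 on log scales, with 1 grey point per gene and the 100 genes with the largest SD in WT in orange. Most orange points lie above the grey mass of genes of smaller spread, with a median SD of 0.898 in MFN2 against 0.125 for all genes.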

How the data were processed

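Lumbar spinal cord RNA of WT mice was sequenced on a NextSeq 500 with paired-end reads of 75 bases. The authors deposited raw counts, 1 whole number per Ensembl gene and library, without normalization or pooling. The submitters' processing notes name STAR, bcl2fastq, edgeR and GRCm38.p6, without versions. How reads were assigned to genes, and whether by strand, is not given in the sources used here. Genes that overlap, lie antisense or have near-identical copies may therefore share reads. The labels name an mRNA kit, and the methods poly(A) mRNA sequencing from a stranded total RNA kit. No spread within a mouse was measured.

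Of 49548 genes, 49289 matched GENCODE M21, and the unmatched genes held at most 0.0521% of the counts of a library. Counts were scaled by TMM over all 12 libraries (edgeR 4.0.16, R 4.3.3), on genes with at least 1 CPM in at least 3 libraries. RPKM is CPM per kilobase of the union of exons. SDs are of log2 CPM with a prior count of 2, and ranges add 0.1 CPM. The biological coefficient of variation was estimated with an intercept-only design. On counts simulated for the 15085 genes with a coefficient of 0.15 for every gene, 0.1495 was recovered. In a separate simulation 200 of the genes were given 0.8 instead, and 165 of them were among the 200 largest SDs.

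The genes named are the 20 most abundant by CPM and by RPKM, genes of 35 lists (346 genes), the 25 with the largest SD above 5 CPM, the 5 with the smallest SD above 50 CPM, Mfn2 and Mfn1, with exceptions said to be named after their values were seen. Some of these genes are not reported here, though sums and counts over lists include them. The WT libraries and the 35 lists were chosen with earlier results of these data known, and 7 lists were added after the values were seen. Alternatives were other scalings (DESeq2 1.42.0 among them), filters, added CPM and library choices. Other columns of per-sample values numbered 0. Total counts of 19453238 to 23564568 limit the precision of genes near 1 CPM.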

Additional observations from a re-analysis of the deposited data

Results flagged for a closer look

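In 14 of 107 values examined over the 4 WT libraries, a single library lay far from the other 3, with a gap to its nearest neighbour that was above Dixon's limit as a share of the whole range. Of these, 8 were library 44, 1 library 45, 1 library 46 and 4 library 47. By chance this happens in about 1 in 20 groups of 4, a rate that does not apply to 7 of the 14, which are genes chosen for their spread between these libraries, or to 2 lists added after the values were seen. Of the other 76 values 5 were past the limit, but these include the 35 lists chosen with earlier results of these data known, so the rate cannot be applied to them either. The values are also not independent, since genes of a list move together.

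In library 44 the gap took 1 of the range for Ddx3y, 1 for Uty and 0.998 for Kdm5d, Y-linked genes of which the other 3 libraries held at most 1 count. It took 0.995 for Tpm3-rs7, 0.913 for Rag1 and 0.831 for Slc4a1, the last 2 being genes of marrow and red cells. Among lists it took 0.986 for MHC class II presentation and 0.936 for Hox paralogues 12 and 13, with summed levels of 20.4, 0.0213, 1.33 and 0.04202 RPKM in libraries 44, 45, 46 and 47.

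In library 47 the gap took 0.943 for the muscle myosin Myh4. The dorsal horn list was lowest there, with a gap of 0.876, and the dorsal root ganglion list highest, with a gap of 0.834 and summed levels of 8.91, 7.901, 8.91 and 13.95 RPKM, carried by Calca. The choroid plexus list, added after the values were seen, had a gap of 0.973 and summed levels of 0.848, 0.861, 0.9303 and 3.86 RPKM. Ttr, the thyroid hormone carrier of that tissue, stood at 0.0435, 0.09396, 0.0442 and 3.85 CPM, and the other choroid genes did not single out library 47, as Folr1 at 0.305, 0.188, 0.265 and 0.208 CPM. In library 46 the ribozyme Rpph1 had a gap of 0.858, at 1554, 1493, 2098 and 1464 CPM. In library 45 the mitochondrial-like Gm13339 was lowest with a gap of 0.858, at 843, 658, 821 and 817 CPM. The causes of these gaps were not tested.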

How the results depend on the processing

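The number of genes above 1 CPM stayed between 14953 and 15171 under the 4 other scalings and without each library in turn. The share of the 10 most abundant genes, 16.6%, was 6.54% among protein-coding genes and 6.57% without ribosomal-like, mitochondrial-like and tail-less features, and ranged from 16.4% to 16.998% without each library. The coefficient of variation, 0.141, ranged from 0.0990 (without library 44) to 0.164 (without library 46) and from 0.113 to 0.151 under the other settings. The 1175 genes with a 2-fold range became 231 among genes above 5 CPM, 8070 with no filter and 492 with 1 CPM added, and ranged from 566 (without library 44) to 965 (without library 45), with 719 without library 47. The other scalings gave 1139 to 1194 and no added CPM 1307, so the count depends mostly on how low levels are treated. Of WT-variable genes, 92 of 100 were also variable in MFN2, against 52 over MFN2 libraries 41 to 43 alone and 142 of 200 genes. It ranged from 81 to 91 without each WT library and from 74 to 93 under the other settings. Ranges of the 25 most variable genes above 5 CPM moved in 0 of 100 refits under other scalings and in 16 of 100 without a library, 10 of them without library 44. Only large shifts were counted as moved. Without library 45 the log2 range of Slc4a1 fell from 4.34 to 2.32 and was counted. That of Atp2a1 fell from 7.14 to 4.11 and was not. Of the 35 list ratios, 1 moved on the CPM scale and 10 without the list's most abundant gene. On the CPM scale the log2 ratio of the forebrain list, from 0.543 to 0.807, was counted, and that of the endothelial list, from 0.330 to 0.191, was not. No paired analysis was possible because a single group is described and no number is shared between libraries. The depth limits genes near 1 CPM, where a count of 0 still allows up to 0.156 CPM.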
